A study of Homo sapiens with 20 samples.

Results

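NAT10 (ENSG00000135372.9) on chromosome 11 is the gene that was edited in this study. It was taken by its identifier as 1 gene of 60616 in the RNA-seq counts and 1 of 20401 in the ribosome profiling (Ribo-seq) counts, and by its name in the peak lists of acetylated RNA immunoprecipitation sequencing (acRIP-seq). Those lists named it at 30 of 162944 peak summits for the ac4C antibody in knockout cells and at 20 of 147469 for IgG in knockout cells. They named it at 23 of 92194 summits for the ac4C antibody in wild type cells and at 18 of 93329 for IgG in wild type cells.

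NAT10 encodes a nucleolar enzyme that acetylates cytidines of RNA, giving N4-acetylcytidine (ac4C). Its established substrates are 18S ribosomal RNA, which it acetylates with guidance from the small nucleolar RNA SNORD13, and certain tRNAs, for which it needs the adapter protein THUMPD1. NAT10 is also a component of the small subunit processome, the large assembly that folds and cleaves the precursor of 18S rRNA. Acetylation of mRNA by NAT10 has been described and is debated.

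The knockout cells are K562, a chronic myeloid leukaemia line with erythroid and megakaryocytic potential, in which exon 5 of NAT10 was targeted with CRISPR-Cas9. The wild type cells are parental K562. The series was designed around a role of NAT10 in erythroid differentiation, in translation and in mRNA acetylation. RNA-seq and Ribo-seq had 2 libraries per genotype, and acRIP-seq had 2 per genotype for each of ac4C antibody, IgG and input, with 1 deposited peak list per genotype and antibody made from both libraries. The design text calls the edited cells both a knockout and knockdown derivatives, and the sources used here do not give whether they are 1 clone. Separate cultures are not stated for the replicates either. The p-values therefore rest on the spread of these libraries only, and that spread may be technical.

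Library totals were 10388717 to 18778485 counts in RNA-seq and 621287 to 1220308 counts in Ribo-seq. The knockout RNA-seq pair differed by 2.99% more than counting noise and was summed as 1 sample, so RNA results set 1 knockout sample against 2 wild type libraries. The 10 K562 markers summed to 2047 and 2032 CPM (counts per 1000000 of the library's counts) in knockout RNA, against 1953 and 1881 CPM in wild type RNA. The lists for other cells were low in every library. They summed to at most 7.41 CPM for lymphocytes, with MS4A1 at 0 throughout, 3.14 for fibroblasts, 0.578 for monocytes, 0.289 for epithelium and 0.157 for liver.

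The sequence just before the annotated NAT10 transcription start is shown because it lies outside the exon named as the target. Where the remaining transcript begins was not measured. The sequence is from RefSeq, build GRCh38.p14, plus strand, chr11:34105379-34105628, and ends at the base before the annotated start. Capitals mark an E-box.
NAT10 promoter: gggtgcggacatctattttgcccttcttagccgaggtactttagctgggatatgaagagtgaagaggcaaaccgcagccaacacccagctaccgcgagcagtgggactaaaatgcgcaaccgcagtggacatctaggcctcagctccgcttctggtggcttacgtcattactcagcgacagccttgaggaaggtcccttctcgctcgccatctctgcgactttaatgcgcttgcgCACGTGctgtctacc
The E-box, CACGTG, which reads the same on both strands, starts 15 bases before the transcription start, and 6.34% of 35116 RefSeq windows of this length hold one. The TATA box TATAAA, which 10.7% of the windows hold on either strand, was not found in it. Nor were the motif CCAAT, held by 32.0% of windows, and the GATA-type motif AGATAA, held by 9.17%. The 250 bases are 55.6% G and C, against a median of 58.0% over all windows. None of the deposited measurements covers this window, so the sequence is given as context only.

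NAT10 RNA was still present in knockout cells, at 35.0% of its wild type level. The gene had 903 and 925 RNA-seq counts in the knockout libraries, or 49.9 and 49.3 CPM, against 1439 and 1837 counts in the wild type libraries, or 139 and 144 CPM. Both knockout libraries were below both wild type libraries, and the gap was many times the difference between libraries of 1 genotype. The share of all genes with such an order was not counted. That share sets the summed knockout level of 49.6 CPM against the summed wild type level of 142 CPM. Its exact 95% interval was 33.0% to 37.1%, which covers counting error only. In bulk RNA, fewer cells with the transcript and less transcript per cell cannot be told apart.

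In the fit over all 16277 genes tested, NAT10 fell by 1.51 on the log2 scale in knockout RNA (SE 0.085, 95% interval -1.71 to -1.31, edgeR quasi-likelihood adjusted p = 0.000102). Of all genes tested 8.79% were called lower, so a fall by itself was common. Among all genes tested NAT10 ranked 22 by p. A total of 272 called genes had a larger fall. Of those, 2 had a mean CPM at or above that of NAT10, namely HECTD2, a ubiquitin ligase, at -2.14 and MT-RNR2, the large mitochondrial ribosomal RNA, at -2.18.

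Ribosome footprints on NAT10 also remained in knockout cells. They numbered 65 and 30 in the knockout libraries, or 55.4 and 48.3 CPM, against 215 and 171 in the wild type libraries, or 176 and 188 CPM. The genotypes did not overlap here either, and the share of all genes without overlap was again not counted. The counts behind the knockout values are small, and the summed knockout level of 52.9 CPM was 29.2% of the wild type level of 181 CPM, with an exact 95% interval of 23.1% to 36.7% for counting error only.

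Fitted over 8887 genes, NAT10 footprints fell by 1.82 on the log2 scale in knockout cells (SE 0.19, 95% interval -2.22 to -1.42, edgeR quasi-likelihood adjusted p = 0.000334), where 5.34% of genes were called and 3.87% were called lower. NAT10 ranked 9 by p, and 55 called genes had a larger fall. Of those, CD81, a tetraspanin, at -1.82 and the apolipoprotein APOE at -2.50 had a mean footprint CPM at or above that of NAT10. Footprints here are read counts over the gene as annotated, with no position within it. They do not say whether the ribosomes were upstream or downstream of the edit, or in which reading frame. The counts likewise do not separate edited from intact transcript.

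**Figure D1:**
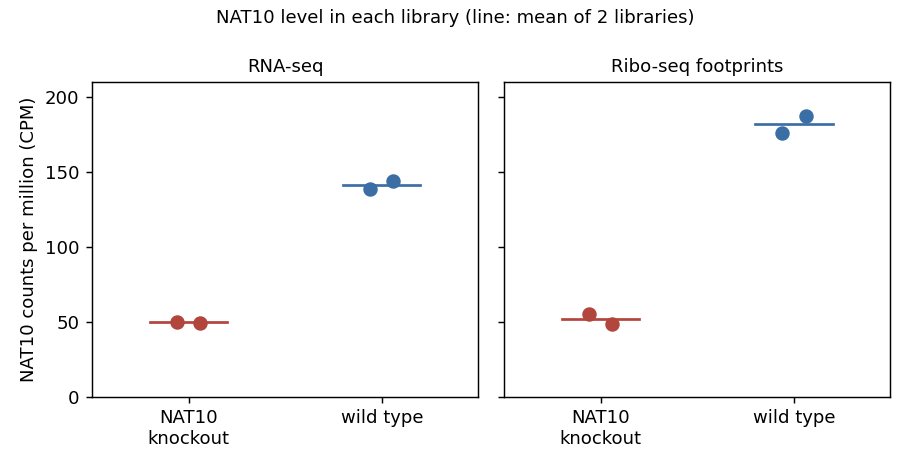
NAT10 CPM (vertical axis) in each RNA-seq library (left) and each Ribo-seq library (right), knockout in red and wild type in blue, with a line at the mean of 2 libraries. The knockout libraries sit between 48.3 and 55.4 CPM and the wild type libraries between 139 and 188 CPM.

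The plot of NAT10 by library shows that knockout and wild type libraries are separated in both assays, and that in wild type cells the NAT10 footprint CPM is above its RNA CPM. Footprint CPM per RNA CPM was 1.07 in knockout cells, where the median of 10264 genes was 0.954, and 1.28 in wild type cells, where the median was 0.920. NAT10 stood at percentile 56.6 of those genes in knockout cells and at 67.0 in wild type cells.

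Whether footprints fell more than RNA was tested as translational efficiency, the footprint change minus the RNA change in 1 model of both assays. The NAT10 value was -0.38 on the log2 scale, with an interval from -0.82 to 0.07 (SE 0.21, edgeR quasi-likelihood adjusted p = 0.576, unadjusted p = 0.0926). The median of all 10299 genes tested was -0.06, so NAT10 lay 0.32 below the typical gene. The interval spans no change and a fall in efficiency of up to 0.82. A single gene passed the threshold (0.00971% of genes tested), TEDC2, a centriole protein, at -1.45 (edgeR adjusted p = 0.0335).

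In the acRIP-seq peak lists NAT10 transcripts carried peaks with both antibodies and in both genotypes. Peaks were called by the authors on transcript sequences, so positions are bases from the 5' end of a transcript and the fold of a summit is the authors' value over background within its own list. NAT10 had 30 summits in 13 regions for ac4C and 20 summits in 14 regions for IgG in knockout cells. In wild type cells it had 23 summits in 5 regions for ac4C and 18 summits in 5 regions for IgG. The lists named 5 transcript models, all protein coding: NAT10-201, NAT10-202, NAT10-205 and NAT10-210 in every list, and NAT10-203 in the wild type IgG list only, with 1 summit at a fold of 2.90. The models share sequence, so the same reads may appear as summits on several of them, and the longest, NAT10-201 (ENST00000257829.8, 3973 bases), is described in detail.

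On NAT10-201 the ac4C list of knockout cells had regions at bases 65 to 1721, 1975 to 3094 and 3350 to 3852, covering 82.6% of the transcript. The IgG list of knockout cells had regions at 551 to 737, 963 to 1135, 1395 to 1778 and 2118 to 2915, covering 38.8%. In the wild type lists a single region spanned nearly the whole transcript, from 19 to 3930 for ac4C (98.5%) and from 16 to 3933 for IgG (98.6%). Peaks therefore lay along the length of the transcript with either antibody. Over all transcripts with a peak, the median share covered was 32.6% and 29.2% in the knockout ac4C and IgG lists. It was 60.2% and 59.8% in the wild type ac4C and IgG lists. Broader wild type coverage was thus also seen over each list as a whole. These medians are over 52065 and 48743 transcripts in the knockout ac4C and IgG lists. In the wild type ac4C and IgG lists they are over 39481 and 39338, so the sets of transcripts differ.

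**Figure D2:**
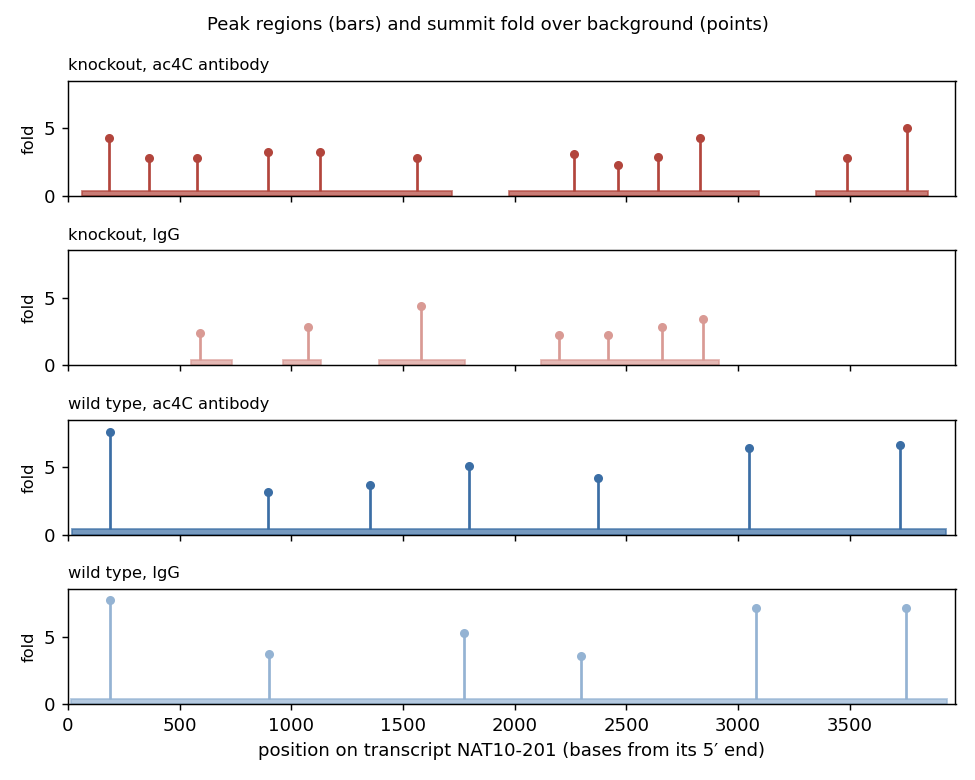
Position of peak regions (bars) and summits (points) along NAT10-201 in bases from its 5' end (horizontal axis), with the authors' fold over background at each summit (vertical axis), in the knockout ac4C, knockout IgG, wild type ac4C and wild type IgG lists from top to bottom. In wild type cells the highest ac4C summits, at bases 190, 3049 and 3724, stand beside IgG summits at bases 190, 3080 and 3751.

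The map of NAT10-201 shows where the summits lie. The highest ac4C folds in knockout cells were 5.00 at base 3757, then 4.28 at base 184 and at base 2828. For IgG in knockout cells the highest fold was 4.41 at base 1580, and no IgG region of this model reached either end. In wild type cells the highest ac4C folds were 7.63 at base 190, 6.61 at base 3724 and 6.40 at base 3049. The wild type IgG list had its highest folds at nearly the same places, 7.72 at base 190, 7.12 at base 3080 and 7.09 at base 3751. At these positions the wild type ac4C folds were not above the IgG folds. The lack of knockout IgG regions at the ends was not shared by NAT10-210 (3329 bases). There the knockout IgG list had a region at 2742 to 3210 with a summit at base 3146 (fold 3.27). The knockout ac4C list had a summit at base 3139 of that model (fold 3.96).

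Regions were also compared across all NAT10 models, taking at least 1 shared base on the same transcript as overlap. In knockout cells 10 of 13 ac4C regions (76.9%) overlapped an IgG region, and 12 of 14 IgG regions (85.7%) overlapped an ac4C region. Among wild type regions, 5 of 5 for ac4C overlapped an IgG region and 4 of 5 for IgG an ac4C region, the exception being NAT10-203. All 13 knockout ac4C regions overlapped a wild type ac4C region, and 4 of 5 wild type ac4C regions overlapped a knockout one. The wild type regions cover nearly whole transcripts, which leaves little room for a region that does not overlap them. The same shares over all regions of the lists were not computed, so these counts do not set NAT10 apart from other genes.

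The lists differed in the number of reads behind them. Every fold on NAT10, and at least 99.9975% of all folds in each list, was a whole multiple (within 0.02) of 1 step. MACS2 gives such multiples when each pileup plus 1 is divided by 1 background value plus 1. Read in this way, the pileup at NAT10 summits was 20 to 47 fragments over a background of 8.59 for ac4C in knockout cells and 15 to 30 over 6.03 for IgG in knockout cells. For wild type cells it was 86 to 246 over 31.4 for ac4C and 87 to 234 over 29.3 for IgG. The exact Poisson interval of the highest pileup on NAT10-201 was 34.5 to 62.5 for ac4C and 20.2 to 42.8 for IgG in knockout cells. For the summit at base 190 in wild type cells it was 216 to 279 for ac4C and 204 to 265 for IgG, so these overlap.

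This gap in reads bears on the authors' significance values. The highest -log10 q on NAT10 was 18.5 and 10.96 in the knockout ac4C and IgG lists and 128 and 123 in the wild type ac4C and IgG lists. Because each list has its own background, length and depth, no change in acetylation of NAT10 RNA between genotypes was drawn from these folds. With 1 value for the background at every position in a list, a fold also follows how abundant the transcript is. The lists are named as antibody against input, yet 1 such value does not vary with input along a transcript.

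Among protein-coding genes of the same list, NAT10 had many summits of ordinary or low height, counted over all protein-coding models of a gene. Models share sequence, so this number also follows how many models carry peaks. On NAT10-201 alone there were 12 and 7 summits in the knockout ac4C and IgG lists, and 7 and 6 in the wild type ac4C and IgG lists. By number of summits it stood at percentile 92.6 of 10086 genes for ac4C and 86.6 of 9720 for IgG in knockout cells, and at 94.6 of 7905 for ac4C and 90.1 of 8021 for IgG in wild type cells. By its highest fold it stood at percentile 24.2 for ac4C and 16.8 for IgG in knockout cells, where the median gene reached 8.65 and 8.97. In wild type cells it stood at 59.1 for ac4C and 58.8 for IgG, where the median gene reached 5.93 and 6.07.

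A list of 57 genes that act with NAT10 was followed in the same fits. In knockout RNA 8 of 57 rose and 4 fell, with a median log2 change of 0.06, against 5.17% of all genes called higher, 8.79% called lower and a median of 0.00. DESeq2 called 2 of these 12 RNA changes, MDM2 and NOB1. In footprints 1 of 56 rose and none fell by edgeR, where 10 were at an unadjusted p under 0.05 and DESeq2 called 0, with a median of 0.05. The background there was 1.47% called higher and 3.87% called lower. The share of all genes at an unadjusted p under 0.05 was not counted in any fit. Translational efficiency changed for 0 of 56 by edgeR, with 5 at an unadjusted p under 0.05 and 0 called by DESeq2.

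Of the 7 genes tied to acetylation, the ubiquitin ligase MDM2 rose and the acetyl-CoA synthetase ACSS2 fell. MDM2 had 246 and 251 CPM in knockout RNA, against 175 and 178 CPM in wild type RNA, a log2 change of 0.50 (SE 0.078, edgeR adjusted p = 0.00596). ACSS2 had 51.6 and 48.7 CPM in knockout RNA, against 63.6 and 64.9 CPM in wild type RNA, a change of -0.36 (SE 0.089, edgeR adjusted p = 0.0345). The ACSS2 call was lost without knockout replicate 2 (edgeR adjusted p = 0.0592), with no filter on low counts (edgeR adjusted p = 0.0523) and with DESeq2 (adjusted p = 0.268).

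The partners that direct NAT10 to its substrates did not pass the test. THUMPD1, the tRNA adapter, had 139 and 145 CPM in knockout RNA, against 157 and 155 CPM in wild type RNA (log2 change -0.13, edgeR adjusted p = 0.269). SNORD13 had 202 and 203 CPM in knockout RNA, against 57.1 and 143 CPM in wild type RNA (log2 change 1.00, edgeR adjusted p = 0.135). Its wild type libraries differed more from each other than the higher one did from knockout.

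The deacetylases SIRT1 and SIRT7, of which SIRT1 acts on NAT10 itself, had log2 RNA changes of 0.11 and 0.03. ACLY, which makes acetyl-CoA from citrate, had 0.14. None of the 6 genes of this group tested in footprints passed there, and none was at an unadjusted p under 0.05. SNORD13 was not in the footprint fit.

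AATF, NGDN and NOL10 are processome proteins, and AATF and NGDN form a module with NOL10 in human cells. Their RNA changes were -0.02, 0.25 and 0.21 on the log2 scale, with edgeR adjusted p = 0.914, 0.353 and 0.167. Their footprint changes were 0.39, 0.07 and 0.62, of which AATF and NOL10 were at an unadjusted p under 0.05 and none passed adjustment (edgeR adjusted p = 0.208, 0.860 and 0.113).

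The 47 other factors of the small subunit processome and of late 40S maturation had a median log2 change of 0.05 in knockout RNA. Of these, 31 were above 0 and 16 below 0, and the median of all genes tested was 0.00. NOB1, the nuclease that makes the mature 3' end of 18S rRNA, had 135 and 133 CPM in knockout RNA, against 195 and 182 CPM in wild type RNA. Its log2 change was -0.49 (SE 0.075, edgeR adjusted p = 0.00514). KRR1, an assembly factor, had 78.2 and 78.6 CPM in knockout RNA, against 58.3 and 58.1 CPM in wild type RNA, a change of 0.43 (SE 0.079, edgeR adjusted p = 0.0107).

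EMG1, an 18S rRNA methyltransferase, had 61.8 and 64.1 CPM in knockout RNA, against 47.7 and 43.7 CPM in wild type RNA, a change of 0.47 (SE 0.091, edgeR adjusted p = 0.0138). RRP7A, another assembly factor, had 73.8 and 78.2 CPM in knockout RNA, against 55.8 and 57.7 CPM in wild type RNA, a change of 0.42 (SE 0.085, edgeR adjusted p = 0.0154). These 4 genes were chosen for their low adjusted p in this comparison. DESeq2 called NOB1 but not KRR1, EMG1 or RRP7A.

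RCL1, a processome protein that resembles RNA cyclases, was the gene called in footprints. It had 106 and 93.4 footprint CPM in knockout cells, against 54.1 and 50.5 CPM in wild type cells, a log2 change of 0.90 (SE 0.21, edgeR adjusted p = 0.0255). Its RNA also rose, by 0.50. The footprint call was lost on leaving out knockout replicate 1 (edgeR adjusted p = 0.0795), wild type replicate 1 (0.0894) or wild type replicate 2 (0.102).

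**Figure D3:**
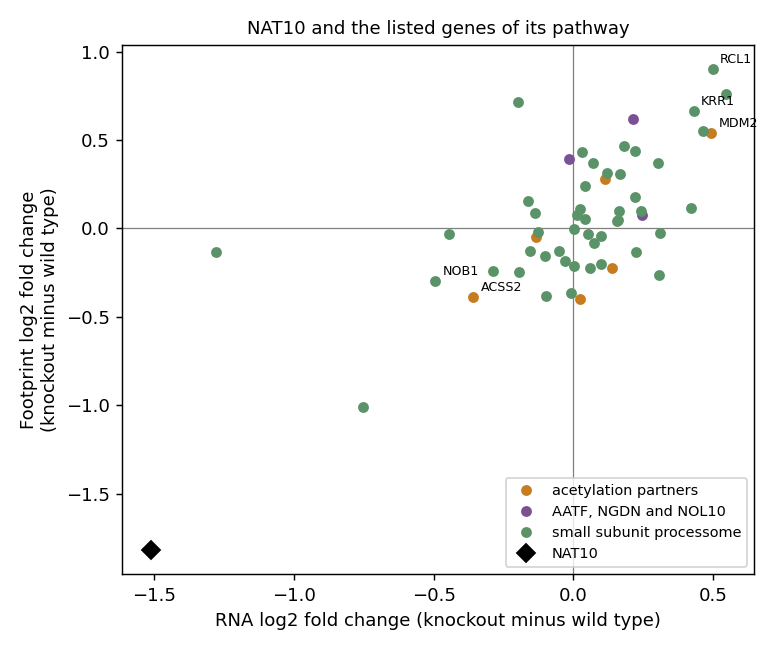
RNA log2 fold change (horizontal axis) against footprint log2 fold change (vertical axis), knockout minus wild type, for NAT10 (black diamond) and the 56 listed genes tested in both assays. NAT10 lies at -1.51 and -1.82, below every listed gene in both assays.

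The plot of listed genes shows the NAT10 point below the others in both assays. The listed genes ran from -1.28 to 1.00 in the RNA fit and from -1.01 to 0.90 in the footprint fit, with SNORD13 the highest in RNA. The lowest in RNA was DDX47, a processome helicase named here after its values were seen, which had 0.553 and 0.0533 CPM in knockout RNA, against 0.674 and 0.786 CPM in wild type RNA. With so few reads its RNA change is uncertain (SE 0.86, edgeR adjusted p = 0.376) and could be as low as that of NAT10. Next in RNA was UTP14A, another processome protein, at -0.75.

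Genes beside NAT10 were followed on each side of it. Gene order was taken from RefSeq annotation of GRCh38.p14. All 5 nearest tested protein-coding genes toward the tip of the short arm fell in knockout RNA by edgeR, where 8.79% of all genes were called lower, and DESeq2 called 4 of them. Of the 5 nearest toward the centromere 0 passed by edgeR, with 3 at an unadjusted p under 0.05 and 0 called by DESeq2. The share of all genes at that unadjusted cut was not counted. CAPRIN1, an RNA-binding protein and the next gene on the tip side, had 258 and 259 CPM in knockout RNA, against 402 and 417 CPM in wild type RNA. It fell by 0.66 on the log2 scale in RNA (SE 0.096, edgeR adjusted p = 0.00420) and by 0.82 in footprints (SE 0.15, edgeR adjusted p = 0.00927).

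The next 4 genes on that side fell by 0.70 (LMO2, a transcriptional cofactor of blood cells), 0.50 (FBXO3, a ubiquitin ligase subunit), 1.01 (CD59, an inhibitor of complement) and 0.54 (HIPK3, a kinase) in RNA, on the log2 scale. In footprints LMO2 was at 0.17, FBXO3 at -0.62 and HIPK3 at 0.27, none of them past the threshold, and CD59 was not tested. On the centromere side the catalase gene CAT was at -0.07 in RNA, with 128 and 121 CPM in knockout libraries against 132 and 130 CPM in wild type libraries. The others there were ABTB2 at 0.64, EHF at -0.97, APIP at -0.28 and PDHX at -0.32, of which EHF had at most 1.41 CPM in any library.

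**Figure D4:**
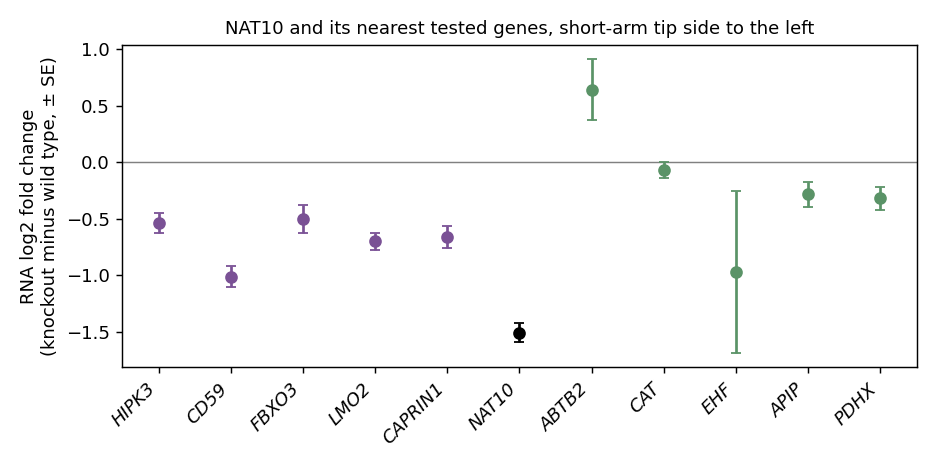
RNA log2 fold change, knockout minus wild type (vertical axis, bars show ± SE of the fit), of NAT10 and the 5 nearest tested protein-coding genes on each side in gene order, with the short-arm tip side to the left. The 5 tip-side genes lie between -1.01 and -0.50, all above NAT10 at -1.51.

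The plot of neighbouring genes shows NAT10 lower than each of the 10, with a median of -0.66 on the tip side and -0.28 on the centromere side. Of 177 tested genes from NAT10 to the tip, 106 fell and 5 rose in RNA with a median of -0.57, against 8.79% of all genes called lower and 5.17% called higher, and 12 were lower than NAT10. In footprints 27 of 128 fell and 5 rose by edgeR, also with a median of -0.57, against 3.87% of all genes called lower and 1.47% called higher. DESeq2 called 14 of the 128 footprint changes in either direction, against 181 of all 8887 genes. In that assay 74 of the 128 were at an unadjusted p under 0.05, a share not counted over all genes, and 3 were lower than NAT10. How much of the fall in NAT10 goes with its stretch of chromosome and how much with the edit was not tested.

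The genes nearest to NAT10 in profile were chosen by the smallest root mean square difference in log2 CPM over the 8 RNA-seq and Ribo-seq libraries, each assay centred on its own mean, among 8590 genes. Among these, CD81 lies on chromosome 11, as NAT10 does, and whether its likeness goes with that chromosome was not tested. CD81, the tetraspanin named above, was the nearest at 0.101. It was followed by PPP1R16B (a phosphatase regulator on chromosome 20, 0.112), ITGA2B (the platelet integrin alpha IIb on chromosome 17, 0.117), MFGE8 (a secreted phosphatidylserine-binding protein on chromosome 15, 0.126) and TRANK1 (on chromosome 3, 0.144), against a median of 0.862 over all genes compared.

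CD81 had 39.5 and 43.6 CPM in knockout RNA, against 109 and 103 CPM in wild type RNA, and 58.8 and 57.9 CPM in knockout footprints, against 210 and 194 CPM in wild type footprints. The RNA log2 changes of the 5 genes ran from -1.78 in TRANK1 to -1.35 in CD81, and their footprint changes from -1.98 in TRANK1 to -1.76 in PPP1R16B. NAT10, at -1.51 and -1.82, lay inside both ranges. These values describe the choice, since the genes were picked on the same libraries.

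**Figure D5:**
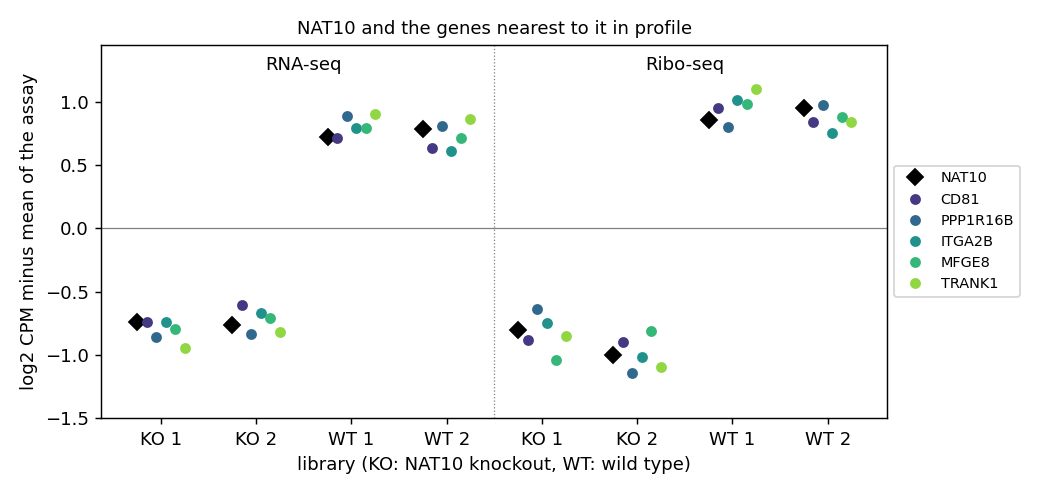
Log2 CPM minus the mean of the assay (vertical axis) in each of the 8 libraries (horizontal axis) for NAT10 (black diamonds) and the 5 genes nearest to it in profile. All 6 genes lie below 0 in every knockout library and above 0 in every wild type library.

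The plot of profiles shows how closely the 5 genes follow NAT10 in each library, with the knockout libraries low in both assays.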

How the data were processed

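RNA-seq and Ribo-seq values are whole-number counts per gene, which the authors deposited after removing duplicate reads, per the file headers. Peak lists hold regions on transcripts with a fold over background (a ratio) and -log10 q at each summit, as deposited by the authors. Tools in the submitters' processing notes, listed without roles, are Trimmomatic, cutadapt, STAR, Bowtie2, featureCounts, SAMtools, DESeq2, MACS2, bedtools and ChIPseeker, with build GRCh38.p13. The strand setting of counting is not given, so antisense reads could not be told apart. Ribo-seq cells received 100 ug/ml cycloheximide for 15 minutes, and acRIP RNA was fragmented to about 100 nt, per the labels. Reads without molecular identifiers are not independent molecules, so intervals cover counting error only.

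Pseudoautosomal Y identifiers were dropped (44 of 60660 in RNA-seq, 18 of 20419 in Ribo-seq), and 60419 and 20352 of the rest matched a symbol. All tests used edgeR 4.0.16 (R 4.3.3), with TMM scaling, filterByExpr, the quasi-likelihood F test, Benjamini-Hochberg adjustment over the genes tested and a threshold of 0.05. CPM was computed here from library totals. A chi-square over genes (20 or more counts in a pair) was 1.03 per degree of freedom for the knockout RNA-seq pair, which was summed. It was 12.5 for wild type RNA-seq, 2.38 for knockout Ribo-seq and 2.56 for wild type Ribo-seq. The spread of the summed sample was taken from wild type, leaving 1 residual degree of freedom in RNA, 2 in footprints and 3 in efficiency.

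Named genes were NAT10, 2 short lists (acetylation partners and the AATF module), up to 4 called processome genes per comparison with the lowest adjusted p, the 5 nearest tested protein-coding genes on each side, and the 5 nearest in profile (mean log2 CPM of at least 3 in both assays, 0.5 CPM added). HECTD2, MT-RNR2, APOE and TEDC2 were added after their values were seen. The members and lists were chosen with earlier results of these data known. DESeq2 1.42.0, RLE scaling, no filter, libraries kept apart, a replicate block, protein-coding totals and leaving out libraries were alternatives. The acRIP-seq input libraries were not analysed here.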

Additional observations from a re-analysis of the deposited data

How the results depend on the processing

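The NAT10 log2 change stayed negative under every alternative run, between -1.58 and -1.44 in RNA and between -1.93 and -1.75 in footprints. Its adjusted p was at most 0.000178 in RNA (edgeR or DESeq2), where the test could be made, and at most 0.000329 in footprints. Leaving out libraries gave -1.58 to -1.45 in RNA and -1.93 to -1.75 in footprints. Without wild type RNA-seq replicate 1 or replicate 2 no residual degree of freedom was left, so those are values with no test. Translational efficiency of NAT10 ran from -0.53 to -0.18 and was not called under any of the 13 alternatives. With the knockout RNA libraries kept apart it was -0.26 while the median of all genes moved to 0.06, so that NAT10 lay 0.32 below it as before.

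Replicate numbers are shared by the genotypes, but the labels do not say that a number marks a shared culture. With the replicate block, the footprint change of NAT10 was -1.81 and calls over all genes numbered 1594, against 475 without it. With the knockout RNA libraries kept apart, the RNA change was -1.52 both without the block (5476 calls) and with it (4983), against 2271 with them summed. Efficiency, with the same libraries kept apart, was -0.26 both without the block (7 calls) and with it (266). Deviations of same-numbered libraries correlated at -0.01 across 16040 genes in RNA and 0.23 across 8887 genes in footprints. With 2 pairs, this is a hint from the data only.

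Of the listed genes DESeq2 called 2 in RNA and 0 in footprints, and with no filter 3 were called in footprints. Leaving out libraries called 11 to 12 in RNA and 0 to 3 in footprints. Over all genes, RNA calls numbered 1039 with DESeq2, 3513 with no filter and 3478 with protein-coding totals. Footprint calls numbered 181 with DESeq2, 889 with no filter and 264 to 716 on leaving out libraries. Efficiency calls numbered 71 with no filter, 27 with DESeq2, 7 with the knockout RNA libraries kept apart and 0 to 5 on leaving out libraries. The cause of these shifts was not tested. Counting the longest NAT10 transcript only, summits numbered 12 (knockout ac4C), 7 (knockout IgG), 7 (wild type ac4C) and 6 (wild type IgG). Footprint depth limits the knockout values, which rest on 65 and 30 counts.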
